A study of Mus musculus with 14 samples.

Results

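Mammary gland luminal progenitors and the alveolar cells that descend from them are set apart by a small group of regulators, and 10 of these genes were followed here: Elf5, Ehf, Kit, Aldh1a3, Stat5a, Stat5b, Cebpb, Nfib, Sox9 and Sox10. They were picked by gene symbol, without a cut-off on any measured value, and 10 of 10 had a row among the 16124 genes of the expression table. The study asked how gene expression in mammary epithelial cells (MECs) changes when Usp22, the ubiquitin protease of the SAGA chromatin complex, is overexpressed. RNA was sequenced from 7 WT females and 7 OE/OE females, each OE/OE mouse paired with a WT littermate, and each library came from 1 mouse. All mice were 3.5 months old, and none of them was described as treated. The study stained glands of nulliparous females, and parity is not stated for the sequenced mice. The pairs carry the study's own numbers, 1 and 3 to 8.

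The OE/OE mice were homozygous for a Usp22 transgene knocked into the ROSA26 locus, the WT littermates carried none, and the transgene coded for mouse Usp22 with FLAG and MYC tags. Its expression was driven by the CAGGS promoter after Zp3-Cre had removed a STOP cassette in the female germ line, so every cell type of the gland, stroma included, could express it. The cells came from organoids that had been released from minced glands with collagenase and hyaluronidase and separated from stroma by short spins. These organoids were then digested with trypsin and strained to single cells, without cell sorting. A level is therefore an average over luminal, basal and remaining stromal cells, and fewer cells of a type and less RNA per cell cannot be told apart.

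In the virgin gland the luminal layer holds hormone-sensing cells, which carry estrogen and progesterone receptors, and luminal progenitors, which lack them and are known for the receptor tyrosine kinase KIT and for aldehyde dehydrogenase activity. During pregnancy prolactin acts on its receptor, JAK2 phosphorylates STAT5, and STAT5 together with ELF5 drives progenitors into milk-producing alveolar cells. C/EBPβ and NFIB take part in the same program, while SOX9 and SOX10 are linked to progenitor and stem-like states. These roles are background from earlier work.

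Promoter sequence was available for 5 of the 10 genes (Elf5, Kit, Stat5a, Stat5b and Cebpb) in the RefSeq annotation of GRCm38.p6. Of their 9 windows, each the 250 bases before an annotated start site, 3 are shown because they hold fewer than 10 bases of annotated exon of their own gene. Exons of other genes were not counted in the windows. The second start site of Elf5 lies on the plus strand of chromosome 2, and its window spans chr2:103423818-103424067. That of the second Stat5b start spans chr11:100822571-100822820 on the minus strand. The Cebpb window spans chr2:167688665-167688914 on the plus strand. Capitals mark letters that match 1 of 5 motifs searched on both strands.
Elf5: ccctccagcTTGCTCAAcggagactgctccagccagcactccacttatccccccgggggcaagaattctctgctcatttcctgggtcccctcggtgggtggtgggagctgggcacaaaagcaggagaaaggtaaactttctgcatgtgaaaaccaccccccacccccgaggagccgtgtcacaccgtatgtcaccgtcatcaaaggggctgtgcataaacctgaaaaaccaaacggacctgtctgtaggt
Stat5b: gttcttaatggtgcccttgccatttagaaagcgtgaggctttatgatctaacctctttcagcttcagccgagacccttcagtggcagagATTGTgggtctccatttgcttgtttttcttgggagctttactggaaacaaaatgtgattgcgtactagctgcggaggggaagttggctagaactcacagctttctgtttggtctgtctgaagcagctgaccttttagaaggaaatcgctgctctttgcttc
Cebpb: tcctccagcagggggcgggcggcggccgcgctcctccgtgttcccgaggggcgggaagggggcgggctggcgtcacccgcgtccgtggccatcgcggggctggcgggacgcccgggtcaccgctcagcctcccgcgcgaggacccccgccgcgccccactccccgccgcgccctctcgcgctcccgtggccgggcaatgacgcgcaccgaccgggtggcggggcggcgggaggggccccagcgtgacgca

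The capitals in the Elf5 window match the C/EBP element TTGCNNAA at position -241 from the start, and a match to it also stood at -235 from the other Elf5 start. It occurred in 9.56% of 32851 RefSeq promoter windows of the same length. In the Stat5b window the capitals match the SOX element ACAAT on the opposite strand, which 27.7% of windows held. The ETS element AGGAAG was present before both Kit starts, where the 2 windows overlap and hold the same site, and before both Stat5a starts and the other Stat5b start, and 29.5% of all windows held it. No match to the STAT element TTCNNNGAA (7.02% of windows) or the NFI element TTGGCA (12.3%) was present in the 9 windows, and the Cebpb window held none of the 5 motifs. Within a window no matches overlap, and a match is a description of these letters only.

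The transgene was checked first. Usp22 ranged from 3499.98 to 5379.7 normalized counts in WT mice and from 74948 to 144288 in OE/OE mice, and the difference was 4.65 ± 0.11 (log2, limma estimate ± SE, adjusted p = 4.74e-08), higher in 7 of 7 pairs as were 0.887% of all genes. Normalized counts are fragments per gene divided by a size factor for the library, and differences are given on the log2(normalized count + 1) scale. Libraries held 20125106 to 41835978 fragments (median 37838929.5), the smallest being a WT library. The OE/OE library of pair 4 stood apart from the other 13 on the first 2 principal components of all genes. Estimates of regulators that rest on it are given with and without that pair. Its summed marker level was also the lowest of the 14 libraries for fibroblasts, adipocytes, endothelium, lymphocytes, mast cells, Schwann cells and melanocytes. For endothelium the sum was 22698 normalized counts, the next lowest being 63947 in the WT mouse of pair 5. Of 12 pan-epithelial markers, 12 were present and none was at 0 in any library, and the same was true of 12 basal and 12 hormone-sensing luminal markers.

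Of the 10 regulators, 1 was called lower in OE/OE mice, Aldh1a3, and none was called higher at the study's threshold of an unadjusted p of 0.05 or less. Among all genes tested, 3.81% passed that threshold in either direction, 1.85% as lower and 1.95% as higher. By edgeR and by DESeq2 on the recovered fragments, which called 3.7% and 3.88% of all genes (597 and 626), Aldh1a3 was again called lower, and likewise without the pair in the limma fit, which left 1.13% of all genes called. After Benjamini-Hochberg adjustment over 16124 genes no regulator passed (smallest limma adjusted p = 0.9997), and only 0.0124% of all genes did. The estimates were above 0 for 6 genes and below 0 for 4, with a median of 0.14 (log2) beside -0.0015 over all genes. The ranges of the WT and OE/OE mice overlapped for 10 of 10 regulators, and 0.0434% of all genes had ranges that did not overlap. Littermate pair accounted for a median of 65.8% of the variance of a regulator's log2 level (73.9% over all genes), and genotype for 5.81% (1.43% over all genes).

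**Figure D1:**
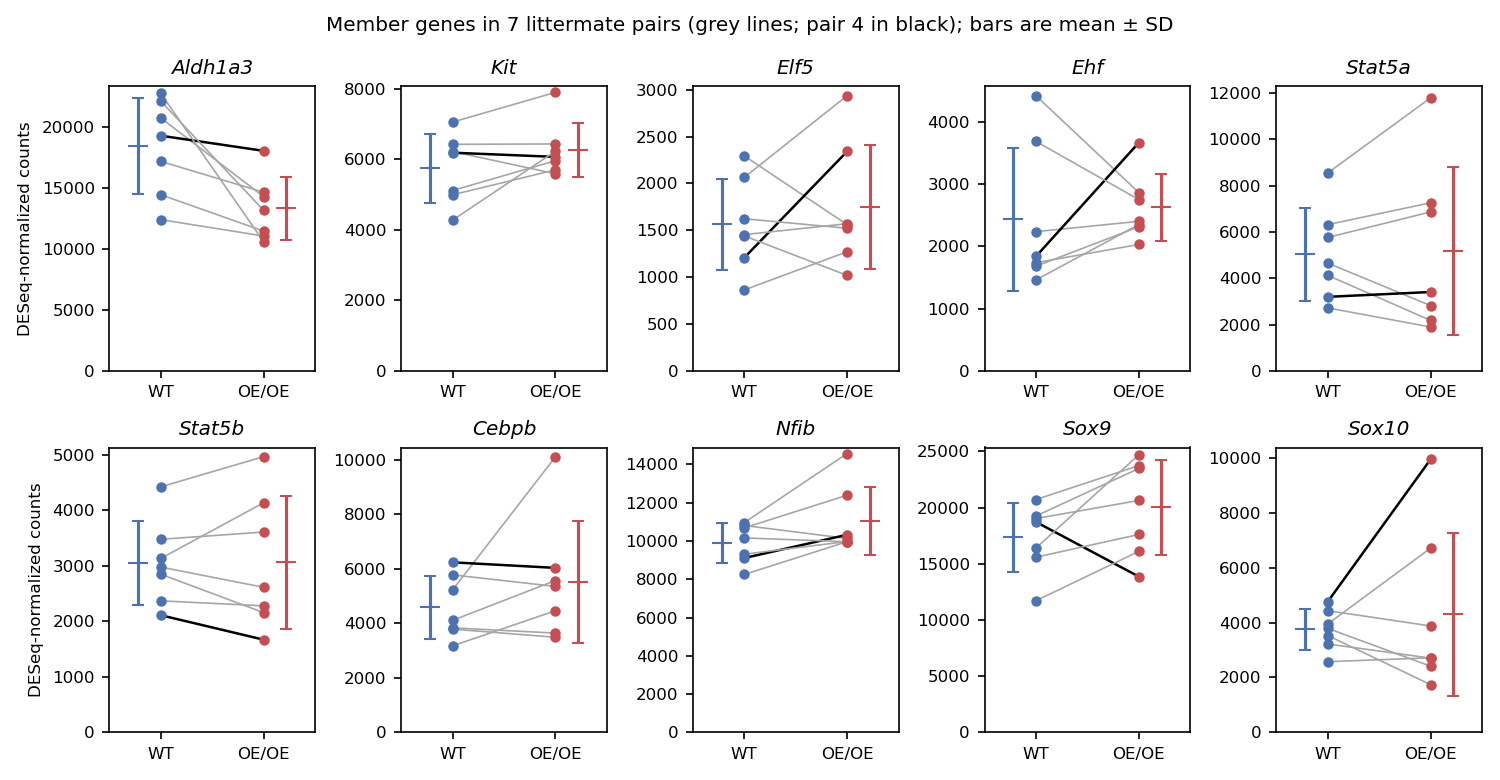
Each panel plots the DESeq-normalized counts of 1 regulator in 7 WT mice (blue) and 7 OE/OE mice (red), with a line joining littermates, pair 4 in black, and bars for the mean ± SD beside the points. Only the Aldh1a3 panel has all 7 lines running downward, and the steep line in the Sox10 panel is pair 4, which reached 9943 in the OE/OE mouse.

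Aldh1a3 encodes the retinaldehyde dehydrogenase that accounts for much of the aldehyde dehydrogenase activity of luminal progenitors, and makes retinoic acid. The gene (ENSMUSG00000015134.15) lies on the minus strand of chromosome 7 (66390890-66427517 in GRCm38), and 0.587% of the 75-base words in its transcripts occur in another gene. Its normalized counts in WT mice were 20767 in pair 1, 12419.7 in pair 3, 19309.6 in pair 4, 22146 in pair 5, 14464 in pair 6, 22781 in pair 7 and 17203 in pair 8. In the OE/OE littermates they were, in the same order, 14308, 11072, 18067, 13186, 11477, 10606 and 14667. Every OE/OE mouse lay below its own littermate, although the ranges overlapped, with 3 WT values inside the OE/OE range and 4 OE/OE values inside the WT range. The mean was 18442 ± 3923 in WT mice and 13340.3 ± 2619 in OE/OE mice (SD, n = 7 each). The estimated difference was -0.46 ± 0.13 (log2 ± SE, 95% interval -0.74 to -0.17, limma p = 0.00508, adjusted p = 0.9997, exact sign-flip p = 0.0156), or a fold of 0.727, and a decrease in all 7 pairs occurred in 0.62% of all genes.

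The size of the Aldh1a3 difference varied among pairs, from -0.10 (log2) in pair 4 to -1.10 in pair 7. Leaving out each pair in turn gave estimates from -0.52 to -0.35, and each kept an unadjusted limma p under the threshold. The sign-flip test, which is exact and two-sided over the 7 pair differences, cannot give a smaller p than 0.0156. Genotype made up 40.3% of the variance of Aldh1a3 and pair 38.2%. The mean log2 score of 12 pan-epithelial markers was higher in the OE/OE mouse of 6 of 7 pairs, and with that score as a covariate Aldh1a3 had an estimate of -0.41 that no longer passed the threshold, as 1.89% of all genes did in that fit. With the score of 12 luminal progenitor markers as covariate the Aldh1a3 estimate was -0.46 and passed, an alternative chosen after seeing the data. That score differed by only -0.01 (log2) between genotypes, so this fit could hardly move the estimate, and no conclusion is drawn from it.

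Kit encodes the stem cell factor receptor and marks luminal progenitors, and it lies on the plus strand of chromosome 5 (75574916-75656722). It ranged from 4275 to 7059 normalized counts in WT mice (median 6191) and from 5593 to 7901 in OE/OE mice (median 6072), with 6 OE/OE values inside the WT range. The difference was 0.13 ± 0.09 (log2, 95% interval -0.06 to 0.33, limma p = 0.158, exact sign-flip p = 0.141), higher in 5 of 7 pairs. The lower bound of the Kit interval lay above the Aldh1a3 estimate, and the difference between these 2 progenitor genes was not tested.

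Elf5 and Ehf encode related ETS-family transcription factors that lie on chromosome 2, Ehf on the minus strand (103263433-103303278) and Elf5 on the plus strand (103411688-103450989 in GRCm38), with a gap of 108409 bases between them. Elf5 is the regulator of alveolar differentiation, and Ehf is an epithelium-specific relative. In WT mice Elf5 ran from 864 to 2295 normalized counts (median 1454), and in OE/OE mice from 1019 to 2937 (median 1561). Ehf was at 1461 to 4418 (median 1839) in WT mice and at 2029.9 to 3665 (median 2402) in OE/OE mice. Both genes overlapped between genotypes, and for Ehf 7 of 7 OE/OE values lay inside the WT range while 1 of 7 WT values lay inside the OE/OE range. The Elf5 difference was 0.14 ± 0.18 (log2, 95% interval -0.26 to 0.54, limma p = 0.452, exact sign-flip p = 0.50) and the Ehf difference 0.20 ± 0.18 (-0.21 to 0.61, limma p = 0.293, exact sign-flip p = 0.375). Without pair 4 they were 0.0047 and 0.071, and with the adipocyte marker score as covariate -0.27 and -0.26.

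The pair differences of the ETS genes were compared next. In pair 4 the OE/OE mouse was above its littermate by 0.95 (log2) for Elf5 and 0.99 for Ehf, and in pair 1 the differences were -0.56 and -0.63. Pair 8 went opposite ways, at -0.09 for Elf5 and 0.46 for Ehf. Over the 7 pair differences Pearson's r was 0.877 (exact permutation p = 0.0123, 0.0492 after adjustment over 4 relations) and Spearman's rho 0.857 (exact permutation p = 0.0238, adjusted p = 0.0952). Without pairs 1 and 4, the 2 farthest from the median of Elf5, r was 0.687 over 5 pairs, and without pair 4 alone it was 0.80 (exact permutation p = 0.0653). The relation did not pass the threshold without pair 4. Elf5 with Kit gave r = 0.295 (exact permutation p = 0.533, adjusted p = 0.533) and rho = 0.286 (exact permutation p = 0.556, adjusted p = 0.662), and r = 0.484 without pairs 1 and 4.

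**Figure D2:**
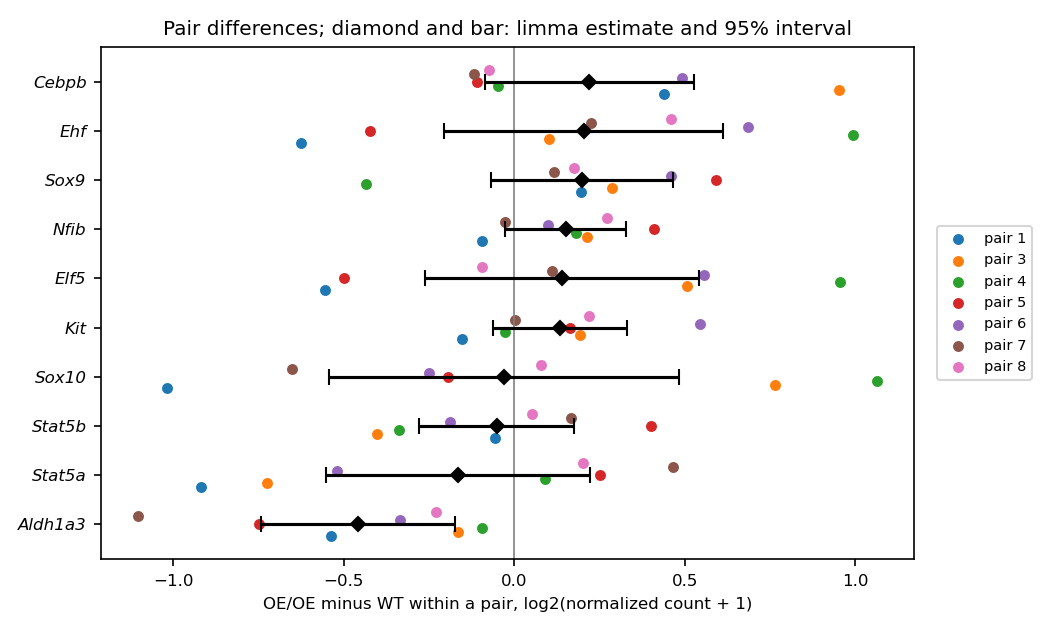
For each regulator, coloured points show the OE/OE minus WT difference of log2(normalized count + 1) in each of 7 pairs, and the black diamond and bar give the limma estimate and its 95% interval. The Aldh1a3 interval, -0.74 to -0.17, lies below 0 and the other 9 intervals include 0.

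Stat5a and Stat5b encode the transcription factors that carry the prolactin and growth hormone signal, and STAT5A is the main form in the alveolar response. The genes stand head to head on chromosome 11, Stat5b on the minus strand (100780731-100850724) and Stat5a on the plus strand (100859351-100885169 in GRCm38), 8626 bases apart with no other gene of the table between them. Stat5a ran from 2722 to 8552 normalized counts in WT mice (median 4659.6) and from 1899 to 11797 in OE/OE mice (median 3409.6). Stat5b ran from 2109 to 4419.8 (median 2976) in WT mice and from 1669 to 4963 (median 2612) in OE/OE mice. For both genes all 7 WT values fell inside the OE/OE range. The differences were -0.16 ± 0.17 (log2, 95% interval -0.55 to 0.22, limma p = 0.363, exact sign-flip p = 0.453) for Stat5a and -0.05 ± 0.10 (-0.28 to 0.17, limma p = 0.620, exact sign-flip p = 0.625) for Stat5b. Without pair 1 the Stat5a estimate was -0.039. The log2 ratio of the genotype means, given with the study's paired test on untransformed values, was 0.036 for Stat5a and 0.0061 for Stat5b.

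Most of the spread of the STAT5 genes lay between pairs, and what the mice of a pair shared besides their litter was not tested. Pair accounted for 87.8% of the variance of Stat5a and 90.5% of that of Stat5b, above the other 8 regulators. The median over all genes was 73.9%. Both mice of pair 7 had the highest level of both genes within their genotype, and the highest Stat5a level was 6.21 times the lowest over the 14 libraries. Per kilobase of exon, Stat5a exceeded Stat5b in 11 of 14 libraries, and the ratio ranged from 0.710 to 1.503 in WT mice and from 0.565 to 1.85 in OE/OE mice. The libraries in which Stat5b was the higher gene were both mice of pair 6 and the OE/OE mouse of pair 1. Of the 75-base words in Stat5a transcripts 5.12% also occur in Stat5b, and 6.99% of those in Stat5b occur in Stat5a. A single read from these stretches does not tell the 2 genes apart, and how often its paired read did was not tested. On the opposite strand an exon of Stat3 covers 1.01% of the exon bases of Stat5a. Over the 7 pair differences the genes had r = 0.580 (exact permutation p = 0.168, adjusted p = 0.336) and rho = 0.714 (exact permutation p = 0.0881, adjusted p = 0.176), with r = 0.573 without pairs 1 and 3.

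**Figure D3:**
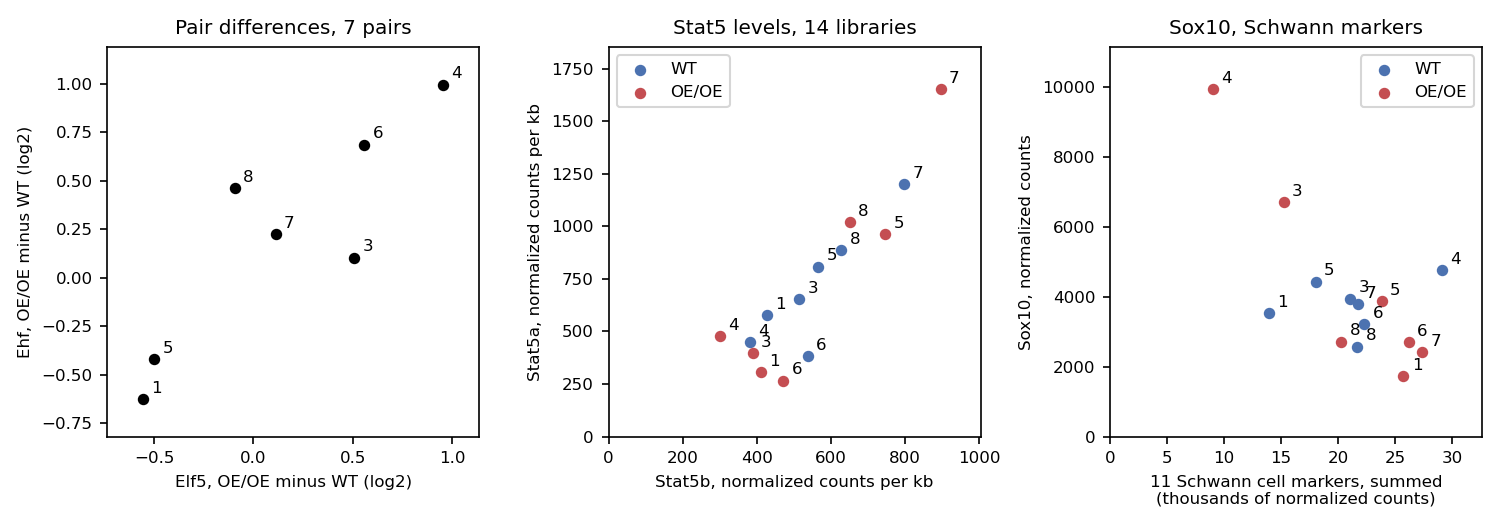
Left, the OE/OE minus WT difference (log2) of Ehf against that of Elf5 in 7 pairs; middle, Stat5a against Stat5b in normalized counts per kilobase of exon in 14 libraries; right, Sox10 normalized counts against the sum of 11 Schwann cell markers in the same libraries, with WT in blue, OE/OE in red and pair numbers beside the points. Elf5 and Ehf run from pair 1 at the lower left to pair 4 at the upper right, pair 7 has the highest Stat5 levels, and the OE/OE mouse of pair 4 combines the highest Sox10 level, 9943, with the lowest Schwann sum, 9012.

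Cebpb encodes C/EBPβ, a leucine zipper factor needed for ductal and alveolar development, and Nfib encodes a nuclear factor I protein that works with STAT5 at milk genes. They lie on the plus strand of chromosome 2 (167688915-167690418) and on the minus strand of chromosome 4 (82290173-82705750). Cebpb was at 3170.3 to 6232 normalized counts in WT mice (median 4104) and at 3487 to 10094 in OE/OE mice (median 5350.3). The OE/OE mouse of pair 3 stood highest, and only 3 of 7 pairs were higher in OE/OE, while the estimate was 0.22 ± 0.14 (log2, 95% interval -0.09 to 0.53, limma p = 0.141, exact sign-flip p = 0.250). An exon of Tmem189 covers 20.7% of the exon bases of Cebpb on the opposite strand, and reads from there cannot be told apart without strand. Nfib ranged from 8251 to 10962 (median 10161) in WT mice and from 9963 to 14569.96 (median 10132) in OE/OE mice. Its difference of 0.15 ± 0.08 (log2, 95% interval -0.03 to 0.33, limma p = 0.0883, exact sign-flip p = 0.0781) was positive in 5 of 7 pairs, and without pair 1 it was 0.19 and passed the threshold, as 7.42% of all genes then did.

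Sox9 encodes an SRY-box factor found in luminal progenitors and basal cells, from the plus strand of chromosome 11 (112782224-112787760). It lay between 11717 and 20711 normalized counts in WT mice (median 18718) and between 13860.04 and 24695 in OE/OE mice (median 20633), and 6 of 7 OE/OE mice were above their littermates. A shared direction in at least 6 of 7 pairs held for 14.1% of all genes. The estimate was 0.20 ± 0.12 (log2, 95% interval -0.07 to 0.46, limma p = 0.126, exact sign-flip p = 0.156), and pair 4, at -0.43, was the 1 pair in the other direction. Without pair 4 the estimate was 0.30, past the threshold, which 8.47% of all genes passed without that pair. With the adipocyte score as covariate it was 0.36 and called, in a fit that called 16.8% of all genes.

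Sox10, the other SRY-box factor, is expressed in mammary progenitors and basal cells and is also a defining gene of Schwann cells and melanocytes, and it lies on the minus strand of chromosome 15 (79154908-79165240). WT mice ranged from 2575 to 4758 normalized counts (median 3788) and OE/OE mice from 1741 to 9943 (median 2717). The OE/OE group thus held both the lowest library, pair 1, and the highest, pair 4, and all 7 WT values lay between them. The estimate of -0.03 ± 0.23 (log2, 95% interval -0.54 to 0.48, limma p = 0.899, exact sign-flip p = 0.875) averaged pair differences from -1.02 to 1.06, and without pair 4 it was -0.21 and not called. The log2 ratio of the genotype means, given with the study's paired test on untransformed values, was 0.20. With the adipocyte score as covariate the Sox10 estimate was -0.61 and called, in a fit that called 16.8% of all genes. Sox9 and Sox10 pair differences had r = -0.480 (exact permutation p = 0.284, adjusted p = 0.379) and rho = -0.214 (exact permutation p = 0.662, adjusted p = 0.662), with r = 0.293 over 5 pairs without pairs 4 and 5.

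Since Sox10 also marks cells of nerves and pigment, 11 Schwann cell and 8 melanocyte genes were set beside it. The Schwann genes were all present, led by the myelin gene Mbp, and their sum ran from 13949 to 29109 normalized counts in WT mice and from 9012 to 27371 in OE/OE mice. The lowest Schwann sum was in the OE/OE mouse of pair 4, which had the highest Sox10 level, and the OE/OE mouse of pair 1, with the lowest Sox10 level, had a sum of 25709. Of the melanocyte genes 4 of 8 had a row, with Tyr, Tyrp1, Oca2 and Slc45a2 among those without one, and their sum was 228 to 414 in WT mice and 149 to 385 in OE/OE mice. Among the listed genes of either cell type that had a row, none was called or at 0 in any library.

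Levels per kilobase of exon put the 10 genes in an order that spanned more than an order of magnitude. Over 14 libraries Sox9 averaged 4518 ± 918 normalized counts per kilobase (SD), Aldh1a3 3442 ± 900.2, Cebpb 3359 ± 1181 and Sox10 1319 ± 688. The middle group was Stat5a at 717 ± 396, Nfib at 700.2 ± 102, Kit at 675 ± 99.8 and Stat5b at 551 ± 174, and Ehf at 454 ± 155 and Elf5 at 282 ± 96.6 were lowest. Neighbours in this order differed by more than the SD of both genes only between Sox9 and Aldh1a3, Cebpb and Sox10, and Ehf and Elf5. Sox9 stood at percentile 98.1 of all genes by this measure and Elf5 at 67.4.

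**Figure D4:**
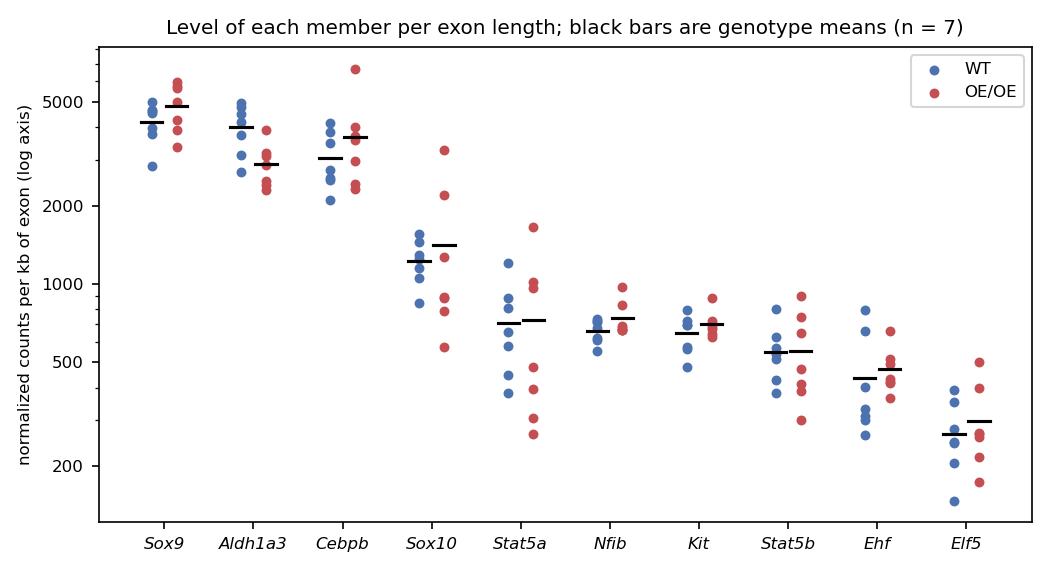
Normalized counts per kilobase of exon on a log axis for each regulator in 7 WT mice (blue) and 7 OE/OE mice (red), with black bars at the genotype means. The genes descend from Sox9, averaging 4518, to Elf5, averaging 282, and Stat5a, Nfib, Kit and Stat5b lie at overlapping levels.

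The genes whose log2 levels most resembled those of each regulator were looked up over the 14 libraries, among 13229 genes with a mean of at least 50 normalized counts. These values of Pearson's r are descriptions, since littermates share a litter and all genes share library composition. The closest were Serpinh1 to Elf5 (r = 0.858), Eloa to Kit (0.904), Trpm6 to Ehf (0.919), Hist1h1d to Stat5a (0.950), Ptprf to Stat5b (0.976) and Slc27a4 to Sox10 (0.954). For Sox9 they were Rab11fip1 (0.883), Irf2bpl (0.872) and the ETS factor Ets2 (0.862), for Nfib Cdk6 (0.938) and its own relative Nfix (0.925), and for Cebpb 2810029C07Rik (0.913), Irx3 (0.901) and its relative Cebpa (0.897). Aldh1a3 had the weakest likeness to any gene, with Ubash3b at r = 0.701, Slc28a3 at 0.685 and Zfp1 at 0.682. Among the regulators themselves the highest r was that of Stat5a with Stat5b (0.805), followed by Sox9 with Nfib (0.601), and the lowest was Stat5b with Cebpb (-0.603).

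Genes around the 10 regulators were examined as 5 lists. Of 112 genes 104 had a row and 5 were called (4.81%), 3 higher and 2 lower, beside the 3.81% of all genes. The count was 10 without pair 4, 9 without pair 1, 2 without pair 3 and 3 without pair 6, and the shares of all genes called in these refits were 8.47%, 7.42%, 2.96% and 2.36%. In the fit without the pair, 1 list gene was called, beside 1.13% of all genes. Among 12 luminal progenitor markers none was called in either direction, with a median of 0.03 (log2), and the smallest p belonged to Lbp (-0.22, limma p = 0.295, exact sign-flip p = 0.391) and the iron carrier Trf (0.27, limma p = 0.318, exact sign-flip p = 0.438). None of 20 genes of the path from prolactin and growth hormone to STAT5 was called either, with a median of -0.0018. Its smallest p was that of the STAT5 target Cish (0.23 ± 0.11, limma p = 0.0733, exact sign-flip p = 0.156), and the adaptor Shc1 came next at -0.10 ± 0.06 (limma p = 0.135, exact sign-flip p = 0.0156), lower in 7 of 7 pairs.

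Of 16 genes listed as alveolar secretory 9 had a row, and 1 was called lower, Aqp5, which encodes a water channel. Whether Aqp5 came from alveolar cells here was not tested. Aqp5 ranged from 6490.0 to 28246 normalized counts in WT mice and from 3577 to 17340.1 in OE/OE mice, a difference of -0.59 ± 0.24 (log2, limma p = 0.0382, exact sign-flip p = 0.0938), lower in 5 of 7 pairs. The milk genes Csn1s2a, Csn1s2b, Csn2, Wap and Glycam1 were among the 7 without a row. Of 27 other mammary fate regulators 1 was called higher, the transcriptional coactivator Cited4 (0.48 ± 0.18, limma p = 0.0243, exact sign-flip p = 0.0625, 6 of 7 pairs), and none was called lower. The list median was 0.09.

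The last list held 37 relatives of the regulators within their families, of which 36 had a row, Cebpe being the exception. In it 2 were called higher and 1 lower. Elf3, an epithelial ETS factor, ranged from 3885 to 7594 normalized counts in WT mice and from 4890 to 10037 in OE/OE mice, a difference of 0.43 ± 0.13 (log2, limma p = 0.0092, exact sign-flip p = 0.0469), higher in 6 of 7 pairs. Cebpa, the C/EBPα gene, was higher by 0.30 ± 0.12 (limma p = 0.0329, exact sign-flip p = 0.0469, 6 of 7 pairs), and Pdgfra, a receptor of the Kit family and a fibroblast marker, differed by -0.40 ± 0.14 (limma p = 0.0183, exact sign-flip p = 0.0781, lower in 5 of 7 pairs). None of these 5 called genes passed after adjustment over all genes.

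**Figure D5:**
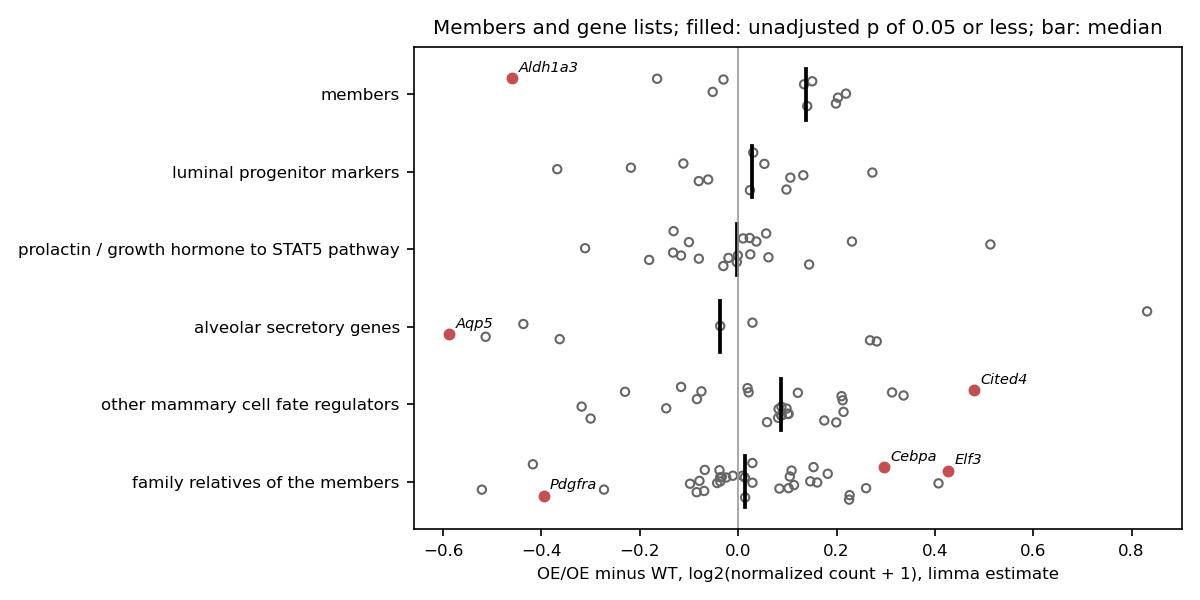
The limma estimate of OE/OE minus WT (log2) for each regulator and for each gene of 5 related lists, with filled red points for an unadjusted p of 0.05 or less and a black bar at each row's median. Filled points are Aldh1a3 among the 10 regulators and 5 of the 104 listed genes, and the medians lie between -0.04 and 0.14.

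Markers of the other cell types moved with genotype as follows. Among all genes 1.85% were called lower and 1.95% higher. Of 12 fibroblast markers 3 were called lower in OE/OE mice, Lum, Pdgfra and Thy1. All 12 had estimates below 0, with a median of -0.36 (log2), and their sum was lower in 5 of 7 pairs. The sum ranged from 112687 to 231186 normalized counts in WT mice and from 73910 (pair 4) to 172508 in OE/OE mice. Of 12 adipocyte markers 6 were called lower, Plin1, Adipoq, Cfd, Cidec, Car3 and Retn, and 4 had estimates above 0, among them Lipe and Pnpla2, none called. Their median was -0.79 (log2), while their sum was lower in 4 of 7 pairs, at 17813 to 40732 in WT mice and 14968 to 37874 in OE/OE mice. Of 12 pan-epithelial markers 11 had estimates above 0. The 1 called higher was Cldn7, by 0.35 ± 0.09 (limma p = 0.00267, exact sign-flip p = 0.0156, 7 of 7 pairs). No gene was called among the markers of basal cells, hormone-sensing luminal cells, endothelium, macrophages, lymphocytes (10 of 12 with a row), mast cells (6 of 10, a cell type that depends on KIT) or Schwann cells and melanocytes. Estimates lay below 0 for 8 of 12 basal, 7 of 12 hormone-sensing, 12 of 12 endothelial and 10 of 12 macrophage genes. The same held for 7 of 10 lymphocyte, 5 of 6 mast cell, 10 of 11 Schwann cell and 4 of 4 melanocyte genes. The part of these cell types in the Aldh1a3 difference was not tested beyond the covariate fits. In those, Aldh1a3 was called with the fibroblast (-0.45), adipocyte (-0.65) and basal (-0.45) scores, and not with the pan-epithelial score (-0.41). In the same order these fits called 1.63%, 16.8%, 5.34% and 1.89% of all genes.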

How the data were processed

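Polyadenylated RNA of 14 libraries, 1 per mouse, was sequenced as paired reads of 75 bases. The authors mapped the reads to mm10 with TopHat2 2.0.10, counted fragments per GENCODE M21 gene with htseq-count (HTSeq 0.6.0), kept genes reaching 10 fragments in 7 libraries, and deposited a signal that is never negative: counts divided by DESeq 1.18.0 size factors. Whole fragments were recovered from it within 0.001 for 100% of values, so the count models run as alternatives used those. Strand use in counting is not given in the sources used here.

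Groups and pair numbers come from the sample titles. The main test was limma 3.58.1 (R 4.3.3, eBayes with trend) on log2(normalized count + 1) over 16124 genes, with the littermate pair as a block as in the study's paired test and its threshold, an unadjusted p of 0.05 or less. Same-numbered libraries shared deviations from their genotype means, with a median correlation of 0.522 over 7 pairs (0.171 at the lowest). Over 42 other combinations the median was -0.151 and the highest 0.634, which is above the median of the same-numbered pairs. Single genes also had an exact two-sided sign-flip test. The models were tested on simulated data. Alternatives were edgeR 4.0.16, DESeq2 1.42.0, other pseudocounts, filters and scalings, no block, a marker score (mean log2 level) added as covariate, and fits without 1 pair.

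The 10 regulators and all lists were chosen with earlier results of these data known, and 2 genes of the lists are not reported here. Genes named in the text are the regulators, Usp22, list genes called or else the 2 with the smallest p, up to 3 genes most like each regulator, and leading or absent markers. Cldn7 and the fibroblast and adipocyte genes were named after their values were seen. Exon lengths and positions are from GENCODE M21 (GRCm38), to which all 16124 gene IDs matched.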

Additional observations from a re-analysis of the deposited data

Results flagged for a closer look

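Within each genotype the highest and lowest mouse was compared with its nearest neighbour for the 10 regulators and Usp22, 22 groups of 7 mice in all, of which chance gives about 1.1. Kit in OE/OE mice stood out with 7901.46 normalized counts in pair 5, the next mouse being at 6439, a gap of 0.592 of the group's range, above Dixon's critical value for 7 samples. The WT littermate of that mouse also had the highest Kit level of its genotype, 7059.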

How the results depend on the processing

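Usp22 kept its direction and its unadjusted call in all 22 alternatives tried, and its adjusted call in all but the paired test on untransformed values (adjusted p = 0.263). For the 10 regulators 139 of 150 refits with another setting and 64 of 70 refits without 1 pair kept direction and side of the threshold. Aldh1a3 stayed negative in all 22, and its call was lost only with the pan-epithelial score (-0.41). In that fit the number of regulators called was 0 and of list genes called 1, beside 1.89% of all genes. The value given with the paired test on untransformed values is the log2 ratio of the genotype means, in place of the mean pair difference. By that measure Sox10 at 0.20, Stat5a at 0.036 and Stat5b at 0.0061 changed sign. Sox10 at 0.024 with the basal score and Elf5 at -0.082 with the fibroblast score also changed sign. So did Elf5 at -0.27, Ehf at -0.26 and Stat5b at 0.055 with the adipocyte score. With the adipocyte score 3 regulators and 22 list genes were called, Sox9 at 0.36 and Sox10 at -0.61 having passed, where 16.8% of all genes were called, and with the fibroblast score 0 list genes (1.63% of all genes). Under the untransformed test and without the limma trend 3 list genes were called (3.99% and 4.05% of all genes), and with the basal score 8 (5.34% of all genes). Without the replicate block 1 list gene was called in place of 5, Aldh1a3 kept its call at -0.46, and 1.13% of all genes were called. The cause of these changes was not tested.

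Without 1 pair the number of regulators called was 1 to 2 and that of list genes 2 (without pair 3) to 10 (without pair 4), with 3 without pair 6 and 9 without pair 1. Estimates ranged over 0.13 to 0.30 for Sox9, 0.11 to 0.19 for Nfib, -0.21 to 0.13 for Sox10, -0.13 to 0.0065 for Stat5b, -0.52 to -0.35 for Aldh1a3, 0.0047 to 0.26 for Elf5, 0.07 to 0.18 for Kit, 0.07 to 0.34 for Ehf, -0.27 to -0.04 for Stat5a and 0.10 to 0.27 for Cebpb. Pearson's r ranged from -0.016 to 0.68 for Elf5 with Kit, 0.80 to 0.95 for Elf5 with Ehf, 0.45 to 0.77 for Stat5a with Stat5b and -0.61 to 0.20 for Sox9 with Sox10. The lowest level of any regulator in any library was 864 normalized counts.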
